A study of Mus musculus with 24 samples.

Results

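The genes of the MYC, MAX and MXD network were followed through a transcriptome experiment on mouse ovarian cancer cells. They were found by their symbols in the count table: Myc, Mycn and Mycl, Max, the repressor genes Mxd1, Mxi1, Mxd3 and Mxd4, and the further MAX partners Mnt and Mga. All 10 of the 10 symbols were present among 25229 in the table, and all 10 passed the filter on low counts that left 12941 genes for testing. The cells were ID8 cells, a line from mouse ovarian surface epithelium that carries a knockout of P53. They were grown with serum and insulin-transferrin-selenium, and every group was harvested after 6 days. The groups received the vehicle DMSO, AU15330 at 2.5 uM, cisplatin at 750 nM, or both drugs together, with 6 replicates in each. AU15330, written AU-15330 below, is a PROTAC that directs the SWI/SNF ATPases SMARCA4 and SMARCA2 to degradation, and cisplatin crosslinks DNA. The paper's methods state a higher cisplatin concentration than the sample labels. All 4 groups derive from 1 cell line and share the knockout, so the values describe this line only.

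MYC, MYCN and MYCL are transcription factors that bind DNA as heterodimers with MAX, at E-box sequences of promoters, and raise the transcription of genes for ribosome production, metabolism and cell division. The MXD proteins (MXD1, MXI1, MXD3 and MXD4) and MNT also pair with MAX, and they recruit SIN3 corepressors and histone deacetylases to the same kind of site. MGA pairs with MAX within a polycomb complex that keeps germline genes silent in somatic cells. A cell's output from E-boxes is therefore thought to reflect the balance of activators and repressors that compete for MAX.

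Read counts per library summed to 17592588 to 25260009. Levels are given in CPM, the count scaled to the library's TMM-adjusted total over tested genes, so that 3 counts in a library, taken here as the floor for detection, correspond to under 0.2 CPM. In each group the replicate 1 library was the farthest from the other 5, and without replicate 1 the call of Mnt for the combination against cisplatin was the only one of a network gene to be lost. The ID8 markers Krt8, Krt18, Krt19, Wt1 and Msln were all detected in DMSO libraries, where 7 epithelial and mesothelial markers summed to 3512 to 5308 CPM. Upk3b, at 13.95 to 63.5 CPM, and Krt7, at 0.434 to 2.42 CPM, were the lowest of the 7 there. All 7 of these fell with AU-15330, to a sum of 1018 to 1150 CPM. Of 10 markers of leukocytes, endothelium and stroma, 8 did not pass the low-count filter, with at most 10 counts in any library, and the leukocyte marker Ptprc had at most 5. The summed level of the 10 was 9.70 to 22.4 CPM in DMSO libraries, 17.7 to 53.6 CPM with AU-15330, 15.4 to 25.8 CPM with cisplatin and 25.6 to 43.7 CPM with both, nearly all of it from Cd68 and Pecam1. The part of these markers in the results below was not tested. Degradation by AU-15330 acts on protein, so the mRNA of its targets does not check the labels: the median Smarca4 level was 250.1 CPM with DMSO and 383 CPM with AU-15330, and that of Smarca2 was 445.0 and 289 CPM. In RNA from bulk cultures, fewer cells of one kind and less RNA per cell cannot be told apart. The labels do not say whether replicates were separate cultures, so p-values measure the spread between these libraries, which may be technical.

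AU-15330 alone shifted each of the 10 network genes. Calls rest on edgeR's quasi-likelihood test over all tested genes, with p-values adjusted by the Benjamini-Hochberg method and a threshold of 0.05. Against DMSO, 4 genes were called higher (Max, Mxd3, Mnt and Mga) and 6 lower (Myc, Mycn, Mycl, Mxd1, Mxi1 and Mxd4). This stands beside a background in which 36.2% of all tested genes were called higher and 37.2% lower. The values of the 2 groups did not overlap for 8 of the 10 genes, against 49.9% of tested genes.

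**Figure D1:**
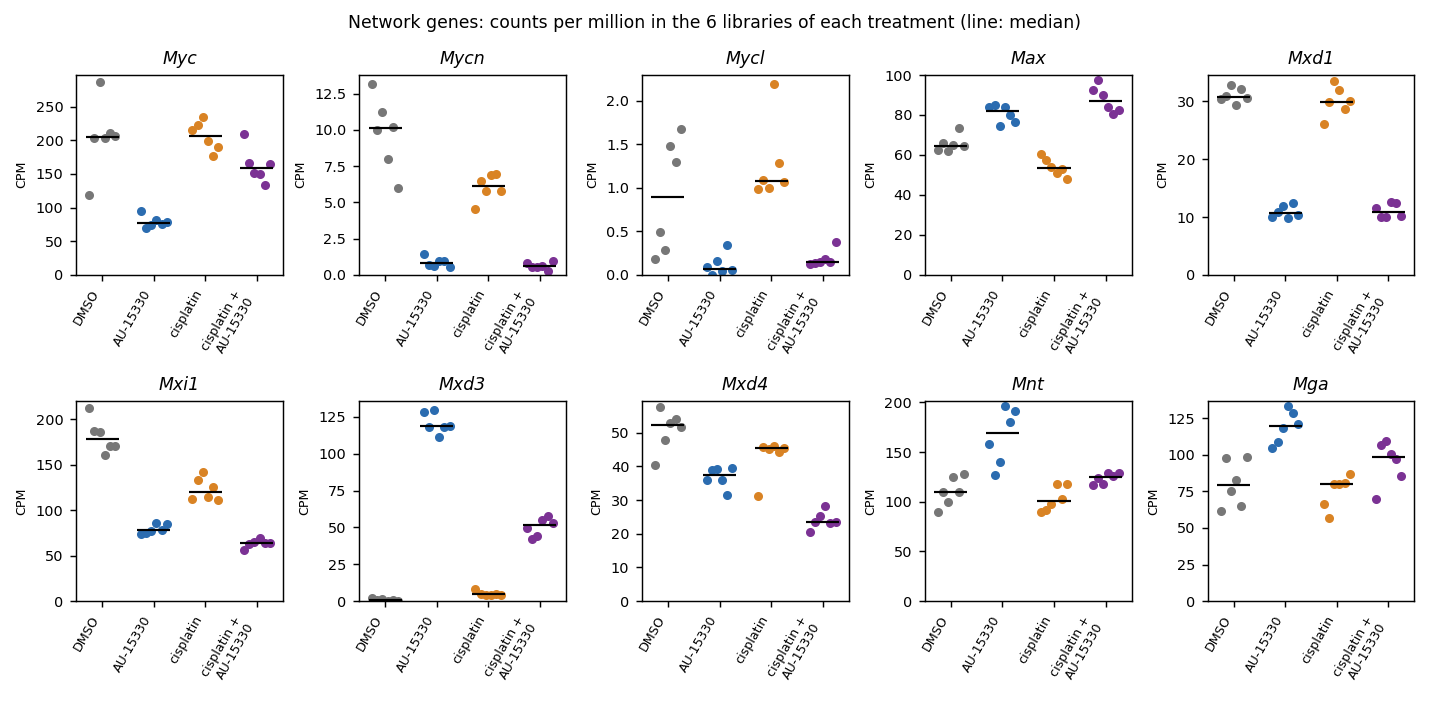
CPM (y axis, linear from 0, separate scale for each gene) of the 10 network genes in 24 libraries. Each point is 1 library, grouped on the x axis by treatment, and the line is the median of 6. Mxd3 lay at 0.134 to 2.10 CPM with DMSO and at 111 to 129 CPM with AU-15330.

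Among the activators, Myc was by far the most abundant. Myc lies on chromosome 15 of GRCm38 (chr15:61985391-61990374, plus strand). Its level in DMSO libraries ran from 119 to 287 CPM with a median of 205, and in AU-15330 libraries from 69.6 to 95.2 CPM with a median of 77.1. All AU-15330 libraries were thus below all DMSO libraries. This gave a log2 fold change of -1.38 (SE 0.137, adjusted p = 1.24e-09, edgeR), or 0.385 of the DMSO level. With cisplatin alone Myc ran from 177 to 234 CPM (median 207), inside the DMSO range, and the estimate was 0.01 with a 95% interval of -0.27 to 0.29 (adjusted p = 0.965, edgeR). With both drugs it ran from 134 to 209 CPM (median 158).

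The fall of Myc with AU-15330 was smaller in the presence of cisplatin. Against cisplatin alone the combination gave -0.34 (SE 0.134, adjusted p = 0.0256, edgeR), with overlapping ranges. Against AU-15330 alone the combination was 1.04 higher on the log2 scale (SE 0.136, adjusted p = 9.82e-07), and every combination library exceeded every AU-15330 library. The difference between the effects of AU-15330 with and without cisplatin, the interaction term of the fit, was 1.03 (SE 0.190, adjusted p = 0.000168, edgeR). DMSO replicate 1 had the lowest Myc level of its group, 119 CPM, and replicate 3 the highest. The call of the combination against cisplatin was lost when any of replicates 2 to 5 was left out, with adjusted p-values of 0.0538 to 0.0725, whereas the other called Myc values kept their calls in all alternatives run.

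Mycn, the neural paralog of Myc, was low in DMSO libraries and close to the detection limit with AU-15330. It runs along the minus strand of chr12:12936093-12941914. The promoter window of Mycn, 250 bases before to 50 after its RefSeq start on GRCm38.p6 (chr12:12941787-12942086, minus strand), is shown because among the 9 network genes with a window it was the only one to hold an E2F-type sequence, TTTGGCGC on either strand, in capitals:
Mycn: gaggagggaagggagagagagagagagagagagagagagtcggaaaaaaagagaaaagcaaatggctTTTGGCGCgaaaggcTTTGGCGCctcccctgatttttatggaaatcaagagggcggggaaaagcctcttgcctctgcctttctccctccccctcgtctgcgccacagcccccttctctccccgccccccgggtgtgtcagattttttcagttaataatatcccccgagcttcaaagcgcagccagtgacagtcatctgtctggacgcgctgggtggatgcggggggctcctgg
This motif starts at bases -183 and -168 from the start site and is present in 0.514% of the 32851 mouse promoter windows of this length and in 1.11% of the tested genes with a window. Mycn ran from 6.00 to 13.2 CPM with DMSO (median 10.1), from 0.522 to 1.44 with AU-15330 (median 0.807), from 4.57 to 6.95 with cisplatin (median 6.15) and from 0.288 to 0.976 with both drugs (median 0.603). Libraries with AU-15330 lay below all libraries without it. With AU-15330 the log2 fold change was -3.49 (SE 0.231, adjusted p = 4.02e-13, edgeR) against DMSO, and that of the combination was -3.24 (SE 0.241, adjusted p = 5.68e-12) against cisplatin. Cisplatin alone gave -0.68 (SE 0.191, adjusted p = 0.00429, edgeR), although the lowest DMSO library, at 6.00 CPM, lay inside the cisplatin range, and in replicates 4 to 6 alone the estimate was -0.31 (adjusted p = 0.237). The interaction for Mycn was 0.25, with an interval of -0.48 to 0.98 (adjusted p = 0.610).

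Mycl, the third activator gene, was barely expressed. The 6 libraries of each group held in sum 112 counts with DMSO, 15 with AU-15330, 179 with cisplatin and 24 with both drugs. Single libraries had 0 to 7 counts with AU-15330 and 3 to 36 with DMSO, so that the ranges overlapped. AU-15330 gave a log2 fold change of -2.93 (SE 0.555, adjusted p = 3.98e-05, edgeR), and that of the combination against cisplatin was -2.76 (SE 0.489, adjusted p = 1.91e-05). Mycl passed the low-count filter only with the help of the cisplatin libraries, at 22 to 53 counts each, so nothing is read from its call against them. With only the DMSO and AU-15330 groups in the fit, Mycl was not tested. At this depth the interaction could lie anywhere between -1.37 and 1.71 (adjusted p = 0.884).

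Max, which encodes the common partner of the network, moved in the opposite direction to Myc with AU-15330, by a small amount. It lies on the minus strand of chr12:76937269-76962201. The window of Max (chr12:76962199-76962498, minus strand, RefSeq, GRCm38.p6) is shown because it holds the E-box CACGTG, the sequence that the heterodimers read, with its first base at -3, so that it spans the start site:
Max: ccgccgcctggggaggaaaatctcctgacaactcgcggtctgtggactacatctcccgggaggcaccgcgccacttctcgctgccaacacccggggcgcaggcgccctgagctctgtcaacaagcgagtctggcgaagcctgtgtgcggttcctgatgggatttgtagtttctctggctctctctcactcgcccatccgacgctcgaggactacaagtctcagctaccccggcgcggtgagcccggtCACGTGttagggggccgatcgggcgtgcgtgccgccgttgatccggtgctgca
RefSeq windows were found for 9 of the 10 genes (that of Myc was missing), and 3 of the 9, Max, Mnt and Mxd4, held a CACGTG. The motif is its own reverse complement, and 7.15% of all windows and 11.6% of the tested genes with a window held it. Max ran from 62.2 to 73.7 CPM with DMSO (median 64.7) and from 74.3 to 85.2 with AU-15330 (median 81.9), from 47.9 to 60.4 with cisplatin (median 53.5) and from 80.3 to 97.8 with both drugs (median 87.1). Neither AU-15330 nor cisplatin libraries overlapped the DMSO libraries, in opposite directions. The log2 fold change was 0.30 (SE 0.0643, adjusted p = 0.000202, edgeR) with AU-15330 and -0.28 (SE 0.0645, adjusted p = 0.000673) with cisplatin. On a background of cisplatin, AU-15330 raised Max by 0.70 (SE 0.0645, adjusted p = 3.32e-10), and the interaction was 0.41 (SE 0.0909, adjusted p = 0.00115, edgeR). A test of the combination against AU-15330 alone gave 0.12, with an interval of -0.01 to 0.26 (adjusted p = 0.121).

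The MXD repressor genes diverged: Mxd3 rose by far the most of the network while Mxd1, Mxi1 and Mxd4 fell. Mxd3 (chr13:55325168-55329823, minus strand) encodes the MXD protein found in proliferating cells, in S phase, unlike its paralogs, which are known from differentiating and quiescent cells. In DMSO libraries it was near the floor, with 3 to 34 counts, or 0.134 to 2.10 CPM (median 0.918). In AU-15330 libraries it stood at 111 to 129 CPM (median 119), in cisplatin libraries at 4.12 to 8.51 (median 4.55) and in combination libraries at 42.4 to 57.5 (median 51.5). No group overlapped another. Mxd3 had a log2 fold change of 6.95 with AU-15330 (SE 0.269, adjusted p = 6.48e-18, edgeR) and 2.40 with cisplatin (SE 0.284, adjusted p = 1.03e-07), a ratio of 123 and of 5.28. DMSO libraries with so few counts make these ratios imprecise: in replicates 4 to 6, where DMSO held 3 to 16 counts, the estimates were 8.04 and 3.31.

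The effects of the 2 drugs on Mxd3 did not add up on the log scale. Combination libraries were 3.29 above cisplatin (SE 0.213, adjusted p = 3.22e-13, edgeR) but 1.26 below AU-15330 alone, at -1.26 (SE 0.186, adjusted p = 6.04e-06). The interaction was -3.66 (SE 0.339, adjusted p = 7.11e-09). Mxd3 shares 105 bases with Prelid1 on the opposite strand, and whether strand was used in counting is not given in the sources used here. Prelid1, a mitochondrial lipid transfer gene, itself ran from 150.0 to 337 CPM with DMSO, 671 to 787 with AU-15330, 155 to 233 with cisplatin and 316 to 386 with both. Whether reads from Prelid1 over the shared bases entered the Mxd3 counts was not tested. The Mxd3 window (chr13:55329682-55329981, minus strand, RefSeq, GRCm38.p6) is shown as that of the gene with the largest difference, and it held neither CACGTG nor TTTGGCGC:
Mxd3: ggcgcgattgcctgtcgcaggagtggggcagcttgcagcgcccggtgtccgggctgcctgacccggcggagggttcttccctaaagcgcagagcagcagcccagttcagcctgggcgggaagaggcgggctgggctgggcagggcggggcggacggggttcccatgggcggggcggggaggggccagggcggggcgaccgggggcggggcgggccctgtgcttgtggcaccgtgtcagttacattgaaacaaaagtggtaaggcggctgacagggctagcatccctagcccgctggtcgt

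Mxd1, also called Mad1, encodes the repressor that replaces MYC on MAX in differentiating cells. Its transcript ran from 29.4 to 32.8 CPM with DMSO (median 30.7), from 9.87 to 12.4 with AU-15330 (median 10.7), from 26.0 to 33.5 with cisplatin (median 30.0) and from 9.96 to 12.7 with both drugs (median 10.95). The libraries thus formed 1 band with AU-15330 and 1 without it. The log2 fold change with AU-15330 was -1.51 (SE 0.0806, adjusted p = 4.83e-15, edgeR), and on cisplatin it was -1.43 (SE 0.0802, adjusted p = 1.91e-14). For cisplatin the estimate was -0.05 (interval -0.21 to 0.11, adjusted p = 0.626), and for the interaction 0.08 (interval -0.15 to 0.31, adjusted p = 0.617).

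Mxi1, the most abundant MXD gene in DMSO libraries, fell with either drug. It ran from 160 to 213 CPM with DMSO (median 179), from 74.3 to 86.0 with AU-15330 (median 77.9), from 111 to 142 with cisplatin (median 120) and from 56.0 to 69.6 with both (median 64.0). Each of the 4 groups was apart from the others. The log2 fold change was -1.19 with AU-15330 (SE 0.0741, adjusted p = 1.06e-13, edgeR), -0.56 with cisplatin (SE 0.0731, adjusted p = 5.50e-07) and -0.32 for the combination against AU-15330 (SE 0.0737, adjusted p = 0.00120). The interaction estimate of 0.24 (interval 0.03 to 0.46) did not pass after adjustment (adjusted p = 0.0735).

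Mxd4, a further repressor of the family, was lowest with both drugs. The Mxd4 window (chr5:34187661-34187960, minus strand, RefSeq, GRCm38.p6) is shown as the second of those with an E-box, here with its first base at -219:
Mxd4: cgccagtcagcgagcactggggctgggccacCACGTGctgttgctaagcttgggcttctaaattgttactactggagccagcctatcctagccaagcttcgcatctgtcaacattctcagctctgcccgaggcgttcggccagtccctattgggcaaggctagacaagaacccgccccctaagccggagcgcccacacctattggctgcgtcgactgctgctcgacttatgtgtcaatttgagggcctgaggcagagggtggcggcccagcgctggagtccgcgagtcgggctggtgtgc
Mxd4 ran from 40.5 to 57.6 CPM with DMSO (median 52.3), from 31.6 to 39.6 with AU-15330 (median 37.5), from 31.3 to 46.0 with cisplatin (median 45.3) and from 20.4 to 28.1 with both (median 23.5). Combination libraries lay below all others. The log2 fold change with AU-15330 was -0.46 (SE 0.0953, adjusted p = 0.000120, edgeR), and that of the combination was -0.84 against cisplatin (SE 0.0965, adjusted p = 2.14e-08) and -0.62 against AU-15330 (SE 0.0966, adjusted p = 1.22e-05). Cisplatin alone gave -0.24 (SE 0.0949, adjusted p = 0.0372), a call that was lost without any one of replicates 2 to 6 (adjusted p 0.0613 to 0.0998), with library totals in place of TMM scaling (-0.17, adjusted p = 0.147) and with only the 2 groups in the fit (adjusted p = 0.0723). The interaction of -0.38 (SE 0.135, adjusted p = 0.0310) was lost without replicate 2, 3 or 6 (adjusted p 0.0655 to 0.107) and in replicates 4 to 6 alone (-0.31, adjusted p = 0.0695).

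Mnt and Mga, the larger MAX partners, rose with AU-15330 and had intermediate levels with both drugs. The Mnt window (chr11:74830674-74830973, plus strand, RefSeq, GRCm38.p6), the third with an E-box, held it with its first base at -123:
Mnt: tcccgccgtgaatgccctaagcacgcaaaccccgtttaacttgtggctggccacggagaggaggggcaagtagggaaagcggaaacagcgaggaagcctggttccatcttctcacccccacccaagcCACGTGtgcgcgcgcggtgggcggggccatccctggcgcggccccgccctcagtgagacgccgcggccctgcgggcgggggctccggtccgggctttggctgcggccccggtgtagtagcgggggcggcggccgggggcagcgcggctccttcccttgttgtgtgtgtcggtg
Mnt, which encodes a repressor present in most cells, ran from 89.8 to 128 CPM with DMSO (median 110), from 127 to 196 with AU-15330 (median 169), from 89.5 to 118 with cisplatin (median 101) and from 117 to 129 with both (median 125). The ranges of DMSO and AU-15330 overlapped at their ends. The log2 fold change was 0.59 with AU-15330 (SE 0.102, adjusted p = 1.27e-05, edgeR) and -0.42 for the combination against AU-15330 (SE 0.102, adjusted p = 0.00180). On cisplatin the estimate was 0.26 (SE 0.102, adjusted p = 0.0246). The call was lost without replicate 1, 2, 3 or 5 (adjusted p 0.0554 to 0.0866) and in replicates 4 to 6 alone (0.15, adjusted p = 0.0703). The interaction was -0.32 (interval -0.62 to -0.02, adjusted p = 0.0851). It was called in 5 of 12 alternatives, among them the replicate block (-0.31, adjusted p = 0.0137).

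Mga ran from 61.4 to 98.4 CPM with DMSO (median 79.1), from 105 to 133 with AU-15330 (median 120), from 57.1 to 87.1 with cisplatin (median 80.0) and from 69.7 to 109 with both (median 98.6). Only the AU-15330 group was apart from DMSO, at a log2 fold change of 0.57 (SE 0.122, adjusted p = 0.000185, edgeR). The combination gave 0.33 against cisplatin (adjusted p = 0.0187) and -0.33 against AU-15330 (adjusted p = 0.0327). The former was lost without replicate 2 or 3 and the latter without replicate 4, 5 or 6, with adjusted p-values of 0.0714 to 0.109. In replicates 4 to 6 alone the former was lost too (0.16, adjusted p = 0.191, edgeR). The interaction of Mga was -0.24 (interval -0.60 to 0.12, adjusted p = 0.306), and -0.47 in replicates 4 to 6 alone (adjusted p = 0.0231).

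Across the network, cisplatin alone had Mxd3 called higher and Mycn, Max, Mxi1 and Mxd4 called lower, 1 and 4 of 10, beside 26% and 25.7% of tested genes. The ranges did not overlap DMSO for 3 genes (24% of tested genes). For the combination against cisplatin, Max, Mxd3, Mnt and Mga were called higher and the other 6 genes lower (background 35.4% and 32.7%), and 7 genes did not overlap (50.2%). The 6 and the 7 both include Mycl, which passed the low-count filter only with the help of the cisplatin libraries. Against AU-15330 alone, the combination had Myc called higher and Mxd3, Mxi1, Mxd4, Mnt and Mga called lower (background 22.2% and 19.5%), with 4 genes apart (29.6%). The interaction was called positive for Myc and Max and negative for Mxd3 and Mxd4 (background 17.9% and 15.8%). These comparisons share groups of libraries, so they are not independent of each other.

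**Figure D2:**
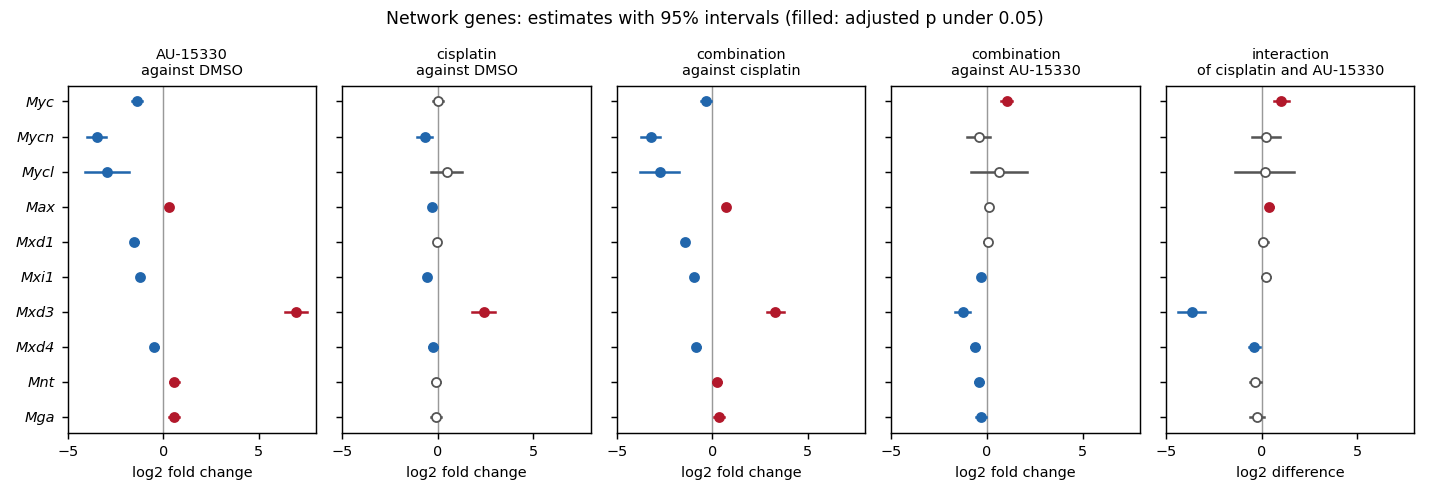
Log2 fold changes (x axis) of the 10 network genes (y axis) in the 4 comparisons of groups, and the interaction in the last panel. Points are edgeR estimates, bars are 95% intervals, and filled points passed an adjusted p of 0.05 (red higher, blue lower). The widest positive estimate is Mxd3 with AU-15330, 6.95, and its interaction is -3.66.

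Levels of different genes were compared per kilobase of exon, with exon lengths from GENCODE M21. The length of a gene was that of all its annotated exons joined, not of the transcripts present in these cells. The order of genes and the ratios between them depend on this choice. In DMSO libraries Myc led the network at 75.5 ± 19.5 CPM per kb (SD, n = 6), followed by Mxi1 at 26.6 ± 2.72, Mnt at 23.8 ± 3.15 and Max at 18.2 ± 1.17. The ranges of Mxi1 and Mnt overlapped, as did those of Mnt and Max. At the bottom stood Mxd3, 0.428 ± 0.315, and Mycl, 0.223 ± 0.162, whose ranges also overlapped. With AU-15330 Mxd3 led at 50.95 ± 2.92 CPM per kb, ahead of Mnt at 35.8 ± 6.15 and Myc at 29.1 ± 3.30, the latter pair overlapping. With cisplatin and with both drugs Myc led again, at 75.95 ± 7.97 and 59.8 ± 9.37 CPM per kb.

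On this scale the sum of the 3 MYC genes ran from 48.0 to 109 CPM per kb with DMSO and from 25.8 to 35.5 with AU-15330. The sum of the 4 MXD genes ran from 33.9 to 41.1 CPM per kb with DMSO and from 65.2 to 72.3 with AU-15330. The ratio of MYC to MXD transcripts had a median of 2.22 with DMSO (range 1.17 to 2.85), 0.422 with AU-15330 (0.378 to 0.502), 2.67 with cisplatin (2.28 to 2.95) and 1.71 with both (1.29 to 2.31). AU-15330 libraries were apart from all others, and the combination overlapped DMSO. The make-up of the MXD pool also differed: Mxd3 gave a median of 1.03% of it with DMSO, 74.5% with AU-15330, 6.54% with cisplatin and 61.3% with both. Mxi1 gave 70.4%, 16.9%, 61.1% and 26.2% in the same order. The median ratio of Mxd3 to Myc per kilobase was 0.00510 with DMSO and 1.77 with AU-15330. These are ratios of mRNA and say nothing of protein, and the sums are descriptions without a test.

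**Figure D3:**
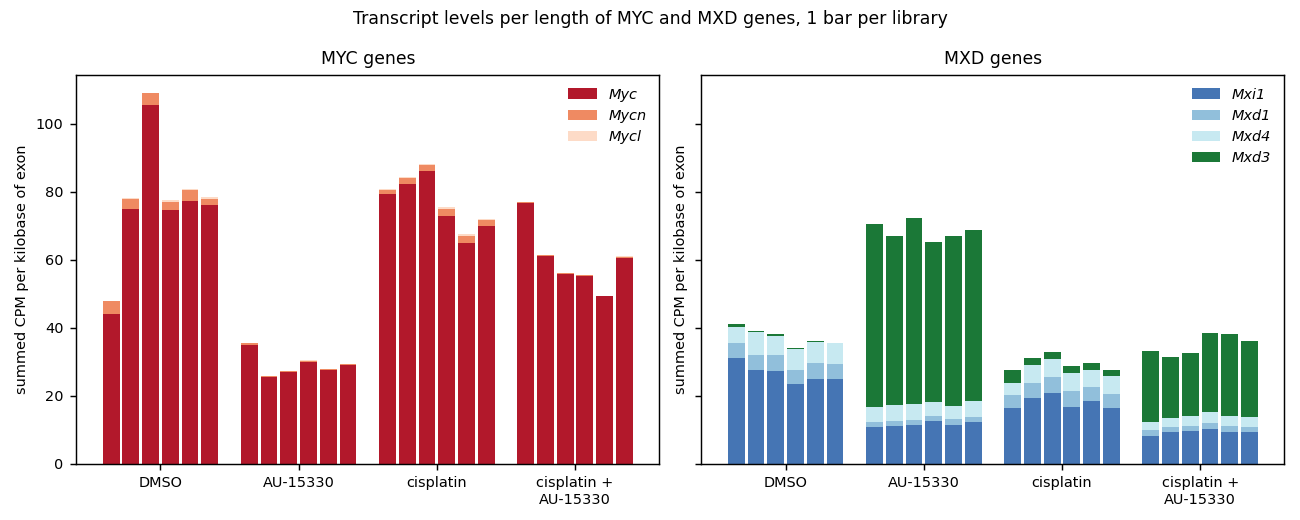
CPM per kilobase of exon (y axis, linear from 0) of the 3 MYC genes (left) and the 4 MXD genes (right), stacked, with 1 bar for each of the 24 libraries, grouped by treatment. Mxd3 (green) fills a median of 74.5% of the MXD bar with AU-15330 and 1.03% with DMSO.

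The genes whose log2 CPM over the 24 libraries was most like that of each member were listed by Pearson's r, as a description, since the 4 treatments set most of the shared variation. Mxd3 was most like Smc4, a condensin subunit (r = 0.987), Cks2, a cyclin kinase subunit (0.985), and Tor3a (0.981). Myc was most like the ephrin receptor gene Epha2 (0.955), the kinase gene Plk2 (0.953) and the phosphatase gene Dusp8 (0.948). Mycn followed Sod3 (0.986), Masp1 and Slc46a1, whereas Mycl followed Triobp (0.920), 6530402F18Rik and Snx33. Mxd1 followed Ahsg (0.989), Fam234a and Gm7694, and Mxi1 followed Maged2 (0.988), Tmem135 and Tshz1. For Mxd4 the list gave Rnf123 (0.951), Pdk2 and Kdm5b, and for Max it gave Pbdc1 (0.953), Areg and Hmox1. Mnt was most like Prr12 (0.932), Ahdc1 and Ipo8, and Mga was most like Usp34 (0.978), Trip11 and Ep300. Within the network Mxd1 and Mycn (r = 0.948) and Mnt and Mga (0.847) ran in parallel, and Mxd3 ran opposite to Mxd1 (-0.908).

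Genes around the network were then taken by function, with the shares of all tested genes given above as background for every list. The median log2 fold change over all tested genes lay between -0.0041 and 0.039 in the 5 comparisons. MLX is a MAX-like protein that pairs with the glucose sensors MondoA (Mlxip) and ChREBP (Mlxipl) and also with MXD1, MXD4 and MNT. In this list of 5, Mlx rose with AU-15330 by 0.44 (SE 0.0709, adjusted p = 4.81e-06, edgeR), whereas Mlxip, Mlxipl and the MondoA targets Txnip and Arrdc4 fell (list median -2.11). Txnip, an inhibitor of glucose uptake and of thioredoxin, went from a median of 2208 CPM to 87.1, a log2 fold change of -4.77, and Arrdc4 from 37.0 to 7.26, at -2.41. Cisplatin alone lowered Txnip by -1.42 and Arrdc4 by -0.90, and raised Mlx by 0.28 and Mlxipl by 0.71.

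The SIN3 corepressor, through which MXD and MNT silence genes, had 5 of 16 genes called higher and 7 lower with AU-15330 (median 0.04), and 3 and 3 with cisplatin (median -0.04). The deacetylase gene Hdac1 (1.12) and the scaffold gene Sin3a (0.63) gave the largest rises with AU-15330, and Sap30 (-1.11) and Ing2 (-0.51) the largest falls. With cisplatin Brms1 (0.29) and Hdac1 (0.24) led the rises, and Ing2 (-0.44) and Ing1 (-0.24) the falls. Over 13 alternatives 0 to 3 genes of this list were called higher with cisplatin and 1 to 4 lower. In the complex that MGA nucleates, 3 of 11 genes were called higher and 7 lower with AU-15330 (median -0.28). Rnf2 (0.55) and Ring1 (0.43), the ubiquitin ligase subunits, rose, and Tfdp2 (-1.14), a partner of E2F proteins, and Pcgf6 (-0.87), the polycomb subunit specific to this complex, fell. Cisplatin raised Tfdp1 (0.53) and L3mbtl2 (0.42) and lowered Pcgf6 (-0.47) and Ring1 (-0.26) among 3 called in each direction.

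Of 17 germline genes known as targets of this complex, 13 did not pass the low-count filter, with at most 24 counts in any library. The 4 tested genes were Ddx4 (2.08), Tdrkh (1.92) and Zcwpw1 (1.93), called higher with AU-15330, and Sycp3, called lower (-1.60). A low gene that passes such a filter only through the groups where it is high has to differ, so nothing is read from the number of these calls. Zcwpw1, a histone reader of meiosis, went from a median of 8.37 to 34.4 CPM. All 4 are named because the count is small.

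Factors that act on MYC itself changed in both directions. Of 14 coactivator genes 6 were called higher and 5 lower with AU-15330 (median -0.05), with rises of Bptf (0.69) and Hcfc1 (0.61) and a fall of Ruvbl2 (-0.42). With cisplatin 0 of the 14 were called by edgeR or by DESeq2, and 1 was lower at an unadjusted p under 0.05. Over 13 alternatives 0 to 2 of them were called higher with cisplatin and 0 to 3 lower. Of 17 genes for MYC protein turnover, 7 were higher and 7 lower with AU-15330 (median -0.10), and 6 and 4 with cisplatin. Cip2a (1.22) and Aurka (0.89), which protect MYC proteins from degradation, rose, and Ppp2r5a (-1.87), a subunit of the phosphatase that primes MYC for degradation, and Fbxo32 (-0.94), a ubiquitin ligase subunit, fell. Cisplatin raised Aurka (2.76) and Plk1 (2.54) and lowered Stub1 and Ppp2r5a (both -0.43). Of 12 tested genes for control of Myc mRNA, 2 were higher and 6 lower with AU-15330 (median -0.13), among them Igf2bp1 (-1.44) and Igf2bp2 (-1.41), which stabilise the transcript, beside rises of Fubp1 (0.70) and Zfp36 (0.66). Cisplatin raised Igf2bp1 (0.36) and Pvt1 (0.25) and lowered Zfp36l1 (-0.51) and Hnrnpd (-0.25).

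The MYC targets of ribosome biogenesis, a list of 30 genes, were higher with both drugs than with either alone. With AU-15330 alone 6 were called higher and 7 lower, with a median log2 fold change of 0.04, and with cisplatin alone 6 and 4, with a median of 0.05. For the combination 27 of 30 were higher and 0 lower against cisplatin (median 0.50), and likewise 27 and 0 against AU-15330 (median 0.55). The interaction was called positive for 23 and negative for 0 (median 0.53). Against the 0 called lower, 0 had an unadjusted p under 0.05 in the same direction and DESeq2 called 0 as well, in each of these 3 comparisons. Over 13 alternatives the counts of 27 ran from 24 to 27 and from 24 to 28, and over the 12 that give an interaction the count of 23 ran from 17 to 23, whereas those with cisplatin alone ran from 1 to 10 in either direction, and those with AU-15330 alone from 5 to 11 higher and from 4 to 16 lower.

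Npm1, a nucleolar chaperone, was called lower with either drug alone, unlike most of the list. Its median was 1089 CPM with DMSO, 775 with AU-15330, 741 with cisplatin and 972 with both. It fell by 0.50 with AU-15330 (adjusted p = 0.000144, edgeR) and by 0.48 with cisplatin (adjusted p = 0.000478), and its interaction was 0.82 (SE 0.148, adjusted p = 0.000132). Wdr74 fell with AU-15330 (-0.62), and Dkc1 (1.49), the pseudouridine synthase of ribosomal RNA, and Utp20 (0.57) rose. Nop56 (0.42) and Rrp12 (0.41) rose with cisplatin and Ddx18 fell (-0.26). The combination exceeded AU-15330 alone by 0.93 for Nop56 and by 0.97 for Rrp12.

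The second list, 28 MYC targets of metabolism and translation, had 21 genes higher and 2 lower for the combination against cisplatin (median 0.52), 20 and 1 against AU-15330 (median 0.41), and 20 and 1 for the interaction (median 0.47). With AU-15330 alone 7 were higher and 10 lower (median -0.04), and with cisplatin alone 4 and 11 (median -0.07). The glycolytic genes Hk2 (-3.11) and Slc2a1 (-2.69) fell the most with AU-15330, and the folate enzyme gene Shmt1 (4.00) and the translation factor gene Eif4a1 (1.37) rose the most. With cisplatin Shmt1 (3.00) and Nme1 (0.60) rose and Slc2a1 (-1.52) and Tfrc (-1.11) fell. Tfrc, the transferrin receptor, had a median of 237 CPM with DMSO, 244 with AU-15330, 114 with cisplatin and 256 with both. The spermidine synthase gene Srm, named after its values were seen, was lowered by AU-15330 (-0.54) and by cisplatin (-0.70), and its interaction was 1.66.

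**Figure D4:**
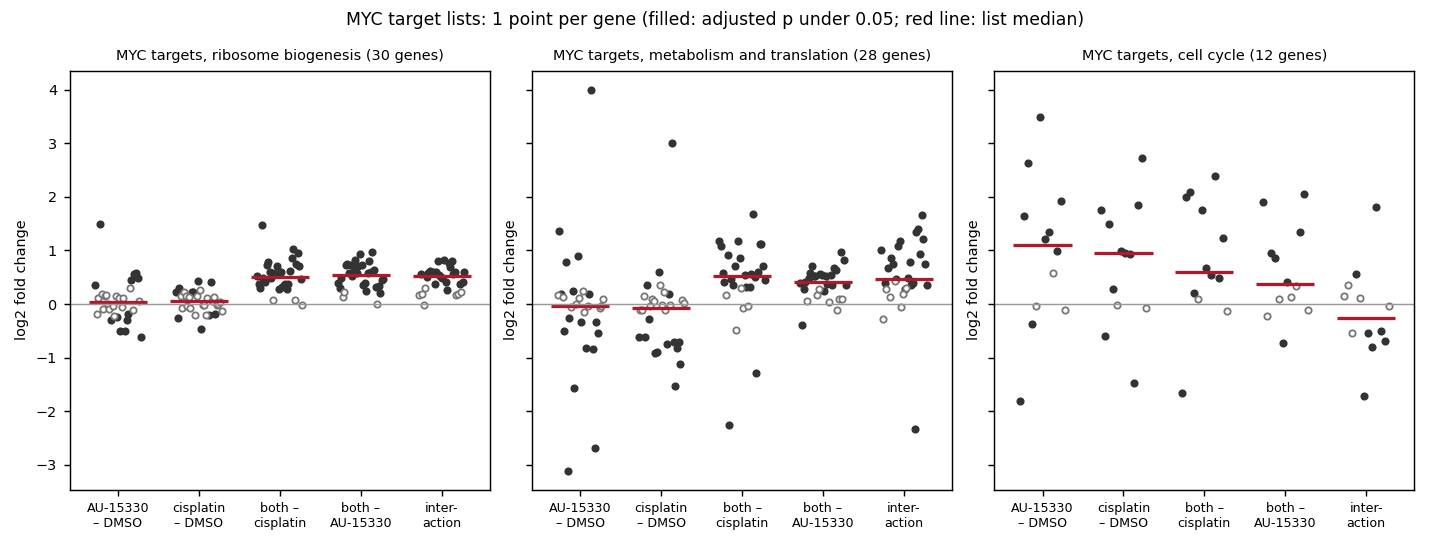
Log2 fold changes (y axis) of the genes of 3 MYC target lists in the 4 comparisons and the interaction (x axis). Each point is 1 gene, filled where adjusted p was under 0.05, and the red line is the list median. The ribosome biogenesis medians are 0.50 and 0.55 for both drugs against cisplatin and AU-15330, and 0.04 and 0.05 for the single drugs against DMSO.

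The third list held 12 MYC targets of the cell cycle. For the combination 9 were higher and 1 lower against cisplatin (median 0.61), and 6 and 1 against AU-15330 (median 0.38). With AU-15330 7 were higher and 2 lower (median 1.10), with cisplatin 8 and 2 (median 0.95), and the interaction was called positive for 2 and negative for 5. Cks2 (3.48) and Ccne1 (2.63), regulators of cyclin-dependent kinases, rose most with AU-15330, and Ccnd1 (-1.81) and Cdc25a (-0.37) fell. With cisplatin the replication helicase genes Mcm5 (2.73) and Mcm4 (1.84) rose, and Id2 (-1.47) and Ccnd2 (-0.59) fell. Ccnd1, encoding cyclin D1, was at a median of 70.5 CPM with DMSO, 17.6 with AU-15330, 236 with cisplatin and 68.8 with both.

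Among genes known to be repressed by MYC, most of those called with AU-15330 were lower. Of 10 tested, 2 were higher and 6 lower (median -0.69), and 3 and 3 with cisplatin (median 0.05). Ndrg1, a differentiation and hypoxia gene, fell by 6.20 with AU-15330, from a median of 559 to 7.40 CPM, and Cdkn1a, the p21 inhibitor of cyclin-dependent kinases, fell by 3.94, from 55.1 to 3.75 CPM. Cdkn2c (0.97) and Gadd45b (0.53) rose. With cisplatin Cdkn2c (0.51) and Clu (0.42) rose, and Cdkn1a (-1.504) and Ndrg1 (-1.43) fell. The interaction was 3.27 for Cdkn1a and 2.87 for Ndrg1, so that the combination libraries, at medians of 12.8 and 21.8 CPM, lay above AU-15330 alone for both genes.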

How the data were processed

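RNA from ID8 P53 KO cells was sequenced as single-end reads from strand-specific polyadenylated libraries. Per the labels, the authors aligned reads to mm10 with STAR 2.7.1a and used DESeq2 1.36.0. The deposited values are raw read counts per gene symbol, without normalization; the counting tool, strand setting and annotation are not given in the sources used here. The 2 lanes of each of the 24 libraries were summed, with 0 of 48 columns unmatched. Paired lanes were compared by chi-square over genes, at 1.36 to 1.46 for each degree of freedom.

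Genes were tested in R 4.3.3 with edgeR 4.0.16: filterByExpr, TMM scaling, 1 mean per group, and the quasi-likelihood F test (20 residual degrees of freedom) with Benjamini-Hochberg adjustment over 12941 genes at 0.05. Log2 CPM used a prior count of 2. Intervals are 95% intervals, and the floor of 3 counts covers counting error only. Coordinates and exon lengths come from GENCODE M21 on GRCm38, and promoter windows from RefSeq on GRCm38.p6. Besides Mxd3 and Prelid1, Mxi1 and Mxd4 overlap genes on the opposite strand, and Max and Mxd1 overlap genes on the same strand, none of them in the table.

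The members and gene lists were chosen with earlier results of these data known. From each list, the genes named are up to 2 called genes with the largest rise and 2 with the largest fall for either drug against DMSO, with a mean log2 CPM of at least 3. Of these, 1 gene is not reported here. For each member, 3 genes with the highest correlation are named. Alternatives were DESeq2 1.42.0, its size factors, library totals without TMM factors, no filter, a replicate block, only the groups compared, replicates 4 to 6, and leaving out each replicate number in all groups. The fit was also run on simulated counts, and that outcome is not reported here. Tumors, human cells and protein data of the study were not analysed here.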

Additional observations from a re-analysis of the deposited data

Results flagged for a closer look

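In 5 of 40 sets of 6 libraries (10 genes in 4 groups), 1 library stood far from the others by Dixon's ratio of its gap to the group's range. Chance gives about 1 in 20. Cisplatin replicate 1 was apart for 2 genes: Mxd4 was lowest there, at 31.3 CPM against 44.1 to 46.0 in the others (ratio 0.870), and Mxd3 was highest, at 8.51 CPM against 4.12 to 4.91 (ratio 0.819). Max was highest in DMSO replicate 5, at 73.7 CPM against 62.2 to 66.0 (ratio 0.670). Mycl was highest in cisplatin replicate 4, at 2.19 CPM against 0.985 to 1.28 (ratio 0.756), and in combination replicate 6, at 0.372 CPM against 0.130 to 0.182 (ratio 0.785). The replicate 1 library had the largest mean distance to the rest of its group in all 4 groups.

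The effect of AU-15330 differed with and without cisplatin for 4 genes by the interaction term in edgeR's quasi-likelihood test. The log2 difference was 1.03 for Myc (adjusted p = 0.000168), 0.41 for Max (adjusted p = 0.00115), -3.66 for Mxd3 (adjusted p = 7.11e-09) and -0.38 for Mxd4 (adjusted p = 0.0310). No cause of these differences was tested.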

How the results depend on the processing

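Of 638 member values under 13 alternatives, 592 kept direction and side of the threshold, 28 lost a call, 6 gained one and 12 changed sign, all 12 uncalled. For cisplatin against DMSO the sign changes were Mxd1 with library totals (0.0248), Myc without the filter (-0.0163), in replicates 4 to 6 (-0.148) and without replicate 1 or 2 (-0.136 to 0.118 over the replicates left out), and Mga without replicate 2 (-0.171 to 0.0403). For the combination against AU-15330 they were Mxd1 without the filter (-0.0072) and without replicate 1 or 4 (-0.0446 to 0.0858), and for the interaction Mycn in replicates 4 to 6 (-0.0898), Mxd1 without replicate 1 (-0.0115 to 0.126) and Mycl without replicate 6 (-0.595 to 0.729). The number of genes called higher for the combination against cisplatin was 2 in replicates 4 to 6 and 2 to 4 when 1 replicate number was left out. The number with a negative interaction was 1 to 2 when 1 replicate number was left out, and 3 with library totals, DESeq2, the replicate block and replicates 4 to 6. In replicates 4 to 6 Mxd4 dropped out and Mnt and Mga came in. Of 2942 values of called list genes 2774 kept their call and 168 lost it, and 154 of 1664 list counts moved by over 1.5 times; the cause was not tested. Library totals without TMM factors moved the median of all genes by 0.129 with AU-15330, and the share of higher among called genes from 50.2% to 61.1% for cisplatin and from 53.0% to 41.7% for the interaction; Myc then lost its call for the combination against cisplatin (-0.28, adjusted p = 0.0677) and Mxd4 its call for cisplatin (-0.17, adjusted p = 0.147). Single-drug counts of the ribosome biogenesis list also turned: 11 higher and 4 lower with AU-15330 under library totals, but 16 lower in replicates 4 to 6, and with cisplatin 10 higher and 1 lower under library totals, but 1 higher and 10 lower in replicates 4 to 6.

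Deviations from group means of libraries with the same replicate number had a mean correlation of 0.145 (-0.133 to 0.483), against -0.0269 for other numbers. Of 36 same-number pairs 23 exceeded 0.1, and 10 of 24 libraries were closest to their own number. Since not every pair exceeded 0.1 and the labels name no shared source, the numbers were not taken as pairs. With the number as a replicate block, 4 and 6 members were called with AU-15330, 1 and 4 with cisplatin, and 2 and 3 for the interaction, where Mnt was added (-0.31, adjusted p = 0.0137, edgeR). The interaction of Mnt also passed with DESeq2 (-0.35, adjusted p = 0.0479), library totals (-0.38, adjusted p = 0.0428), replicates 4 to 6 (-0.49, adjusted p = 0.00119) and without replicate 2 (-0.42, adjusted p = 0.0371). Depth limits Mycl everywhere, Mycn with AU-15330 and Mxd3 with DMSO.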
